A study of Homo sapiens with 5 samples.

Results

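The comparison described here sets MCF12A cells kept for 4 weeks in 1% acetaldehyde against cells of the same line kept for 4 weeks in 2.5% ethanol. MCF12A is an established line of breast epithelial cells of human origin that forms no tumours. Total RNA of each culture was labelled with biotin and measured on an Affymetrix human Gene ST array, and the comparison has 1 array per side. It takes up 2 of the 5 arrays of the series. An array of untreated cells, deposited in the same table, is given beside both as a reference. All 3 cultures were monolayers in DMEM/F12 medium with horse serum, epidermal growth factor, hydrocortisone, insulin and cholera toxin. The doses differ in the labels, and the design text of the series gives the ethanol of a 4-week exposure as 2.5 mM where the sample labels have 2.5%. Compound and dose therefore cannot be told apart in any difference below. No source used here says how many cultures were pooled or at which passage the cells were taken.

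A gene was followed where a probe of the array carried exactly 1 gene symbol. Of several such probes the brightest was taken, and the higher of the acetaldehyde and ethanol arrays had to reach 70.2, the median intensity of the table, called the floor here. This left 11221 of 17958 genes. The floor is not a measured background. At its edge, ALPI was left out with 70.18 on the higher array and ZCWPW1 was kept with 70.23. Values are RMA intensities on a linear scale, and differences are log2 of acetaldehyde minus log2 of ethanol, so that a positive difference means more signal in acetaldehyde. Where the dimmer array was under the floor, the fold was computed from the floor and is a lower bound, written as at least N-fold. With 1 array per side there is no spread between cultures and no test, so precision is limited by the number of arrays.

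Ethanol is oxidised by alcohol dehydrogenases to acetaldehyde, a reactive aldehyde that binds to proteins and DNA, and aldehyde dehydrogenases turn acetaldehyde into acetate. Breast epithelial cells are held together by adherens junctions, desmosomes and tight junctions. Basal cells also carry keratin filaments and hemidesmosomes, which fix them to the basement membrane. In a mesenchymal transition, epithelial cells lower these genes under repressors such as ZEB1 and ZEB2 and raise genes of the matrix and of cell movement.

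The acetaldehyde and ethanol arrays were furthest apart for single genes of cell junctions, keratins and the epithelial surface. In the lists of these genes, every member past 2-fold was higher in acetaldehyde. Other members ranged from less than 2-fold higher, as NECTIN4 with 0.91, through near equal to somewhat lower, as KRT8 with -0.60. The arrays differed less for matrix and mesenchymal genes, which were on balance lower in acetaldehyde. Genes of fatty acid uptake were the group furthest below ethanol. Of the 11221 genes, 208 (1.85%) stood 2-fold or more above ethanol and 59 (0.526%) 2-fold or more below it, and 77.9% of the genes past 2-fold were therefore higher in acetaldehyde. The counts were 97 (0.864%) and 12 (0.107%) at 3-fold, and 64 (0.57%) and 4 (0.0356%) at 4-fold. These shares are taken over genes past the floor, while list counts below are out of all measured members unless stated. They are the background for every list. A single gene past 2-fold in a short list is near them and is not read as a result for that list. Counts use the measured difference: in 27 of the 208 and 10 of the 59 genes the dimmer array was under the floor and the bound on the fold is below 2. Just past the 2-fold line stood PLEKHA1, at 334 in ethanol and 668 in acetaldehyde. Just short of it were TFCP2L1, at 460.2 and 919, and RBMS3, at 509 and 255.

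Most genes were close on both arrays. Equal values, within 1e-06 on the log2 scale, were found for 3934 genes (35.1%) and for 46.5% of all probes. Above 0 were 3523 genes and below it 3764, and the median difference was 0.00. How the equal values arose was not tested, so they are not read as measured agreement, here or for single genes below. The interquartile range was -0.04 to 0.04 and the standard deviation across genes 0.35. The lowest 1% of genes lay under -0.82 and the highest 1% above 1.43. Medians over all probes were 70.2 in ethanol, 70.6 in acetaldehyde and 69.98 in untreated cells. Genes past 2-fold were found at every brightness, at 2.39%, 3.10%, 2.32% and 1.71% of the genes from the dimmest to the brightest quartile.

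**Figure D1:**
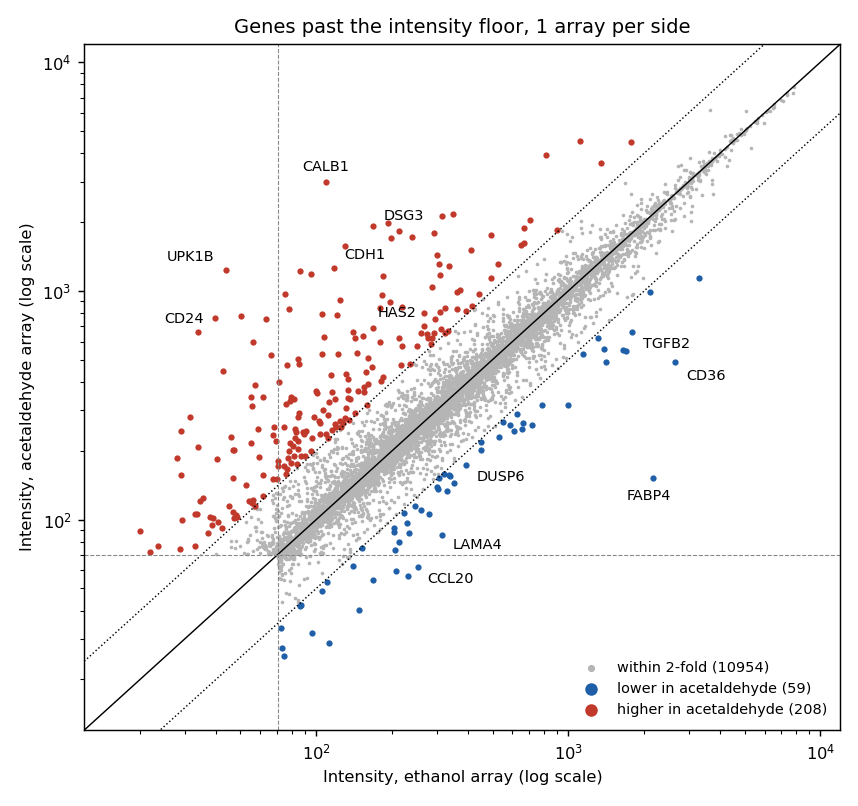
Intensity of 11221 genes past the floor on the ethanol array (horizontal, log scale) and on the acetaldehyde array (vertical, log scale), 1 point per gene and 1 array per side. The solid line marks equal values, dotted lines 2-fold, dashed lines the floor of 70.2; 208 genes in red are at least 2-fold higher in acetaldehyde, with UPK1B and CALB1 furthest out, and 59 in blue at least 2-fold lower, with FABP4 furthest out.

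The untreated array was nearer to acetaldehyde than to ethanol for most of these genes. Over the 208 higher genes, the median intensity was 351 in acetaldehyde, 104 in ethanol and 410.4 in untreated cells. Their median log2 difference from untreated cells was -0.17 in acetaldehyde and -1.73 in ethanol. Over the 59 lower genes, the medians were 138 in acetaldehyde, 314 in ethanol and 67.1 in untreated cells, with median differences from untreated cells of 0.72 and 1.97. Both of these control differences share the untreated array. The acetaldehyde array was the nearer to the untreated one in all but 3 of the 208 higher genes and all but 2 of the 59 lower genes. In bulk RNA, fewer cells of a type and less RNA per cell cannot be told apart.

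In 5 genes past 2-fold the acetaldehyde array was the further from untreated cells, and these were picked out after their values were seen. HAS2, which encodes a synthase of the matrix polymer hyaluronan, read 38.6 in untreated cells, 266 in ethanol and 699 in acetaldehyde, and was 2.62-fold higher in acetaldehyde than in ethanol. A pair of secreted proteins of the CAP family showed the same order. CRISPLD2 read 40.9, 61.3 and 126, and PI15 read 38.2, 76.3 and 167, in that order of arrays. HAS2, CRISPLD2 and PI15 were under the floor of 70.2 in untreated cells. CRISPLD2 was under it in ethanol as well, so the bound on its fold is below 2. The other 2 were lower in acetaldehyde than in both other cultures. DUSP6, a phosphatase that inactivates ERK, read 328 in untreated cells, 391 in ethanol and 173 in acetaldehyde. SPRY4, an inhibitor of growth factor receptor signalling, read 247, 301 and 138.

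Cadherins, the receptors that join neighbouring cells in adherens junctions, were among the genes furthest apart. CDH1, which encodes E-cadherin, read 1114 in untreated cells, 117 in ethanol and 1262 in acetaldehyde, a log2 difference of 3.43. CDH3, the P-cadherin gene, read 2285, 316 and 2121 in the same order, a difference of 2.75. Both were low in ethanol alone. JUP encodes plakoglobin, which ties cadherins to the cytoskeleton, and read 1921, 495 and 1759.7. The nectin gene NECTIN1 stood just past 2-fold, at 230.4, 111 and 228. Of 9 measured adherens junction genes these 4 were past 2-fold upward and 0 downward, and the median difference was 0.91. The catenin genes CTNNA1 and CTNNB1, whose proteins bind the cadherin tail, had differences of 0.00 and -0.24.

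Desmosomes, the spot junctions that anchor keratin filaments, had the largest share of genes past 2-fold among the lists that had any. In acetaldehyde 7 of 11 measured genes were higher and 0 lower, and their median was 1.66. The desmosomal cadherins DSC2, DSC3 and DSG3 read 75.3, 95.5 and 168 in ethanol, against 969, 1189 and 1928 in acetaldehyde and 1069, 1389 and 2024 in untreated cells. They were 12.9, 12.5 and 11.5-fold higher in acetaldehyde. These 3 genes are also direct neighbours among the genes past the floor on the RefSeq assembly GRCh38.p14. The plaque genes were graded, with differences of 2.63 for the desmoplakin gene DSP, 1.92 for PKP1, 1.66 for PKP2 and 0.56 for PKP3. PERP, a membrane protein of desmosomes, read 4767, 1768 and 4473 in untreated cells, ethanol and acetaldehyde. DSG2 and the envoplakin gene EVPL had 0.42 and 0.00.

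Tight junctions seal the space between cells, and some of their membrane proteins differed while others did not. CLDN1 read 2217 in untreated cells, 192 in ethanol and 1982 in acetaldehyde, and was 10.3-fold higher in acetaldehyde. CLDN7 read 1729, 302 and 1441, and MARVELD2, the gene of the corner protein tricellulin, read 746, 145 and 537. Also past 2-fold were PATJ, a scaffold of the polarity complex, and LSR, a receptor at the corners of cells, with 1.31 and 1.29. In all 5 of 12 measured genes were higher and 0 lower. The median was 0.26 over the 12 and 0.79 over the 10 past the floor. CLDN3, CLDN4 and TJP1 had differences of -0.06, 0.18 and 0.22. Of 5 measured connexin genes of gap junctions, GJB2 was past 2-fold, at 276, 125 and 254.

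Hemidesmosome genes followed the junctions. ITGA6 and ITGB4, whose products form the integrin receptor for laminin, read 649 and 665 in ethanol, 1589 and 1621 in acetaldehyde, and 1805 and 1985 in untreated cells. LAMB3, a chain of the laminin they bind, had a difference of 1.20. These are 3 of 6 measured members, and the linker genes DST and PLEC had -0.15 and -0.24. Another laminin chain went the opposite way. LAMA4, found in vessel and muscle basement membranes, read 38.7 in untreated cells, 314 in ethanol and 85.8 in acetaldehyde, and was 3.66-fold lower in acetaldehyde.

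**Figure D2:**
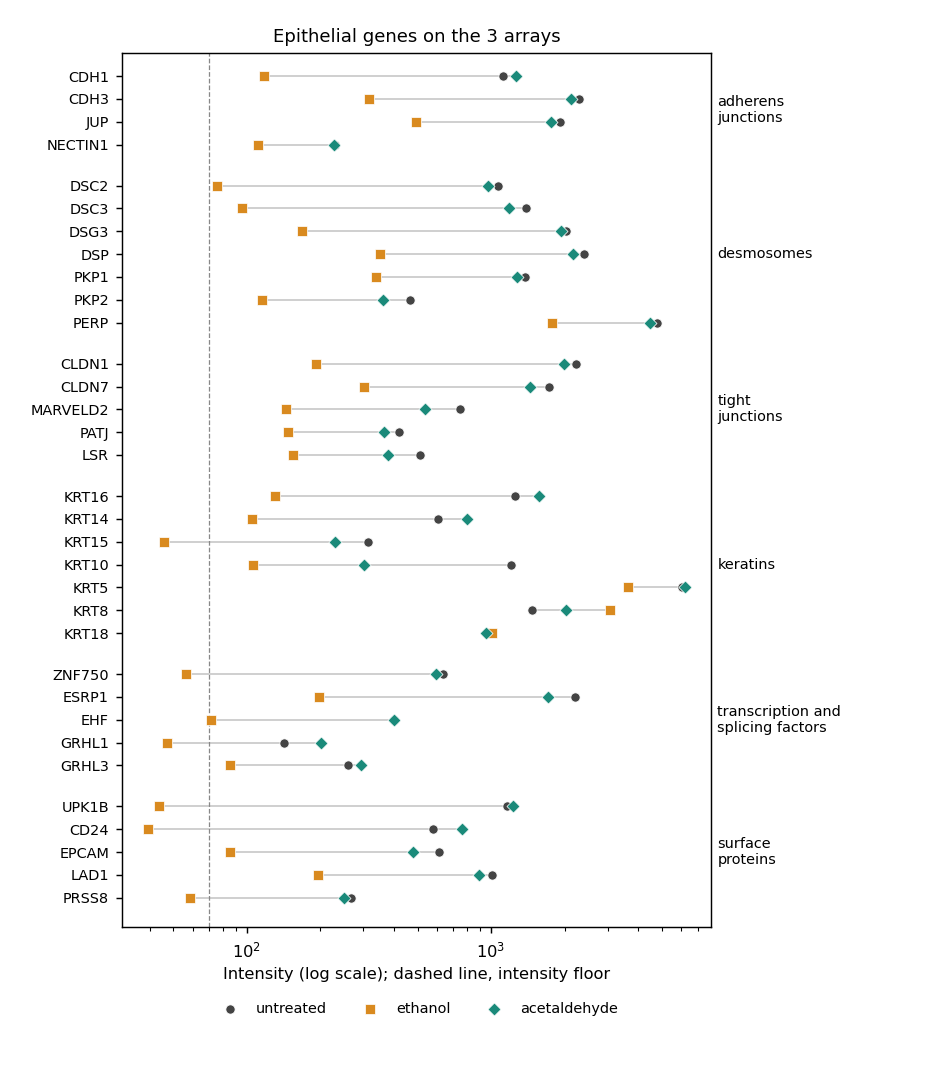
Intensity (horizontal, log scale) of named junction, keratin, transcription factor and surface genes on the untreated (circle), ethanol (square) and acetaldehyde (diamond) arrays, 1 array each; the dashed line is the floor of 70.2. Ethanol is the lowest point in all rows but KRT8, where it is the highest, and KRT18, where the arrays lie together at 951 to 1004; in NECTIN1 and EHF the untreated circle lies under the diamond.

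Promoters were read because many epithelial genes differed together. RefSeq promoters (GRCh38.p14, 250 bases before to 50 after the start of transcription) were held for 155 of the 208 higher genes, 48 of the 59 lower genes and 8997 of all 11221, the start listed first being used for each gene. The letters CACCTG, or CAGGTG on the other strand, form the E-box that ZEB and SNAI repressors are known to bind. They occurred in 64 of 155 promoters of higher genes (41.3%), in 6 of 48 of lower genes (12.5%), in 18.5% of promoters of all genes past the floor and in 20.6% of the 27305 promoters of the whole RefSeq set. With any listed start of a gene counted, the shares were 52.3%, 18.8% and 23.8% for higher, lower and all genes past the floor. With only the first listed start used again, a different E-box, CAGCTG, occurred in 16.8%, 22.9% and 16.9% of higher, lower and all genes past the floor. Shown first are promoters of 5 higher genes that hold the motif, chosen for that after their letters were read, and last that of CD36, a lower gene that also holds it. Capitals mark each CACCTG or CAGGTG, and each line runs 5′ to 3′ on the strand of the gene.
UPK1B, chr3:119173348-119173647, plus strand: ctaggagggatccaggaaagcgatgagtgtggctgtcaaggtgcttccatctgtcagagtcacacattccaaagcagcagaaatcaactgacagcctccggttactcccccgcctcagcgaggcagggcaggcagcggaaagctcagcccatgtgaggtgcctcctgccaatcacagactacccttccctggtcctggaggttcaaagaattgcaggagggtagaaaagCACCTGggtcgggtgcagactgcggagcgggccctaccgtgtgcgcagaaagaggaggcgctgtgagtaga
DSC2, chr18:31102372-31102671, minus strand: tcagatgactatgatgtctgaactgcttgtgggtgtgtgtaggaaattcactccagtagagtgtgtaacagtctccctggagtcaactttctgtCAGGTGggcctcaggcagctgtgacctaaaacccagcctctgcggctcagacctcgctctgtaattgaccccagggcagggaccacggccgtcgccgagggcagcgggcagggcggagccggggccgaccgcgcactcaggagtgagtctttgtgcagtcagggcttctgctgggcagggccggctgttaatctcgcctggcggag
DSP, chr6:7541421-7541720, plus strand: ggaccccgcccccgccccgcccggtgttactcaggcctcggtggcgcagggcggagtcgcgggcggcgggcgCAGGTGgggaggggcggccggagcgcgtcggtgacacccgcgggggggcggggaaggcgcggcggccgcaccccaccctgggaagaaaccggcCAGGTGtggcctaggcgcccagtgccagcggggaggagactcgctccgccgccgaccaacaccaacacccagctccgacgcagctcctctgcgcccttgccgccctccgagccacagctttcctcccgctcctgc
S100A14, chr1:153616276-153616575, minus strand: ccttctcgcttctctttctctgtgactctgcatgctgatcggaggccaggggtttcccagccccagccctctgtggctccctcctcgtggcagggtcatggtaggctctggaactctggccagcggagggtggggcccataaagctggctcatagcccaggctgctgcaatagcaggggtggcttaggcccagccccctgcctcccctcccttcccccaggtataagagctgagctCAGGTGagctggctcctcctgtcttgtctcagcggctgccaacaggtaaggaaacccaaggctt
SPRR1B, chr1:153030953-153031252, plus strand: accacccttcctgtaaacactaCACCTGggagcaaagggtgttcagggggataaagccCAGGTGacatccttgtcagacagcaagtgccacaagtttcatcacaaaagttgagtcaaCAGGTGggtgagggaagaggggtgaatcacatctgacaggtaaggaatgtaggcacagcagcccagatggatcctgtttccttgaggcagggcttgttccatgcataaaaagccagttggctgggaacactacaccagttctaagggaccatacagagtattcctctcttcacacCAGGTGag
CD36, chr7:80601957-80602256, plus strand: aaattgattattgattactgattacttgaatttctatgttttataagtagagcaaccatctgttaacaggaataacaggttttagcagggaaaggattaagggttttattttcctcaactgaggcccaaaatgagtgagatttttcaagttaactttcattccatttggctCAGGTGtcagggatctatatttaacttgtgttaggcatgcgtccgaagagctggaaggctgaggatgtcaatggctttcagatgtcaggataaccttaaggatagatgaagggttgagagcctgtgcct
The motif starts 21 bases before the transcription start in UPK1B, 14 bases before it in S100A14 and 79 before it in CD36. SPRR1B holds 4 copies and DSP 2. Promoters of DSC3, DSG3, CLDN1, CD24 and SERPINB3 held none in this window. No binding was measured in this series, and a match is a description of the letters.

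Of 8 motifs searched on both strands, with N for any base, the others were counted in the same way. The AP-1 motif TGANTCA occurred in 11.6% of higher, 8.33% of lower and 4.43% of all promoters past the floor, and the TATA motif TATAAA in 14.8%, 20.8% and 6.15%. The Grainyhead motif AACCNGTT occurred in 3.23%, 4.17% and 1.37%, and the TEAD motif CATTCC in 10.3%, 20.8% and 10.6%. The GC box GGGCGG occurred in 57.4%, 45.8% and 71.0%, and the ETS motif CCGGAAGT in 0.645%, 0 of 48 and 8.83%. Base composition also differed, with a median GC content of 64%, 54.8% and 65.7% and a median of 21, 11.5 and 26 CG pairs. The part of base composition in these shares was not tested.

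Some keratins of basal and stratified epithelium were higher in acetaldehyde. KRT16, a keratin of activated epidermis, read 1257 in untreated cells, 131 in ethanol and 1569 in acetaldehyde, a difference of 3.59. KRT14, the basal keratin, read 607, 105 and 794. KRT15, another basal keratin, read 315, 45.99 and 229.6. KRT10, a keratin of cells that leave the basal layer, was low in both treated cultures, at 1205, 106 and 302. Of 10 measured keratins of this kind, these 4 were past 2-fold upward and 0 downward, and the median was 0.66. KRT5, the partner of KRT14, read 6056, 3629 and 6194. KRT80 went the other way within 2-fold, at 71.6, 107 and 71.6. Among 5 simple keratins none reached 2-fold, and KRT8 read 1474, 3068 and 2027, a difference of -0.60.

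Genes of the cornified envelope, the cross-linked shell of differentiated keratinocytes, came next. SPRR1B, an envelope precursor, read 1486 in untreated cells, 124 in ethanol and 910.0 in acetaldehyde. The related SPRR1A read 1329.9, 105 and 531. The cross-linking transglutaminase TGM1 read 247, 57.1 and 387, higher in acetaldehyde than in both other cultures, and was at least 5.51-fold higher than in ethanol. Of 20 measured envelope genes, 15 were past the floor, and 7 of these were higher and 0 lower. The median was 0.28 over the 20. SCEL and SPRR2A, also counted, were under the floor in ethanol, so their folds are bounds of at least 1.27 and 1.44. Probes of SPRR and other closely related genes may share sequence, which was not tested.

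Some serpins, kallikreins and S100 genes were also higher in acetaldehyde, while others such as SERPINB1 and S100A10 had differences of -0.08 and 0.13. SERPINB3, an inhibitor of cysteine proteases, read 677 in untreated cells, 33.8 in ethanol and 657 in acetaldehyde, at least 9.36-fold higher in acetaldehyde. SERPINB13 read 329.7, 29.1 and 244. They were 2 of 7 measured clade B serpins past 2-fold. Among 12 kallikreins and inhibitors of secreted proteases 4 were higher and 0 lower. These were the elastase inhibitors PI3 and SLPI, with 1.92 and 1.43, and the peptidases KLK7 and KLK10, with 1.45 and 1.12. Of 12 measured S100 genes, which encode small calcium-binding proteins, 6 were higher and 0 lower, and the median was 1.06. S100A8 and S100A9, whose products pair as calprotectin, read 817 and 168 in ethanol, 3917 and 687 in acetaldehyde and 2858 and 478 in untreated cells. S100A7 was at least 4.01-fold and S100A14 6.31-fold higher in acetaldehyde. Next to each other among the genes past the floor lie PGLYRP3, S100A9, S100A8 and S100A7, all past 2-fold upward.

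Transcription and splicing factors of epithelial cells differed as well. ZNF750, a regulator of keratinocyte differentiation, read 638 in untreated cells, 56.2 in ethanol and 594 in acetaldehyde, at least 8.46-fold higher in acetaldehyde. ESRP1, which sets the epithelial pattern of splicing, read 2212, 197 and 1709. The ETS factor gene EHF read 399, 71.2 and 399.7. The Grainyhead genes GRHL1 and GRHL3 had differences of 2.09 and 1.78, and both were above untreated cells in acetaldehyde, at 201 against 141 and at 293 against 259. TFAP2A, KLF5 and OVOL1 followed with 1.59, 1.38 and 1.27. In all 8 of 20 measured factors were higher and 0 lower, and the median was 0.64. TRPS1, a repressor of the GATA family, read 294, 562 and 324, and its difference was -0.79.

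Surface and membrane traffic genes form the longest list. Of 27 measured members, 17 were past the floor, and 12 were past 2-fold upward and 0 downward. For CEACAM6 and RAB25, counted among the 12, ethanol was under the floor and the fold is at least 1.71 and 1.09. UPK1B, a tetraspanin of the urothelial plaque, read 1163 in untreated cells, 43.6 in ethanol and 1234 in acetaldehyde. CD24, a sialoglycoprotein of epithelial surfaces, read 581, 39.6 and 764. EPCAM, an adhesion molecule of epithelia, read 613, 85.3 and 479, and its second probe gave a difference of 1.89 beside 2.49. The membrane protease PRSS8 was at least 3.55-fold higher, and the inhibitors of such proteases SPINT1 and SPINT2 had 1.90 and 1.63. MUC1, a membrane mucin, read 854, 287 and 1041.

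Several genes outside these groups stood near the top of the ranking. CALB1, which encodes the calcium buffer calbindin, read 3407 in untreated cells, 109 in ethanol and 2998 in acetaldehyde, 27.5-fold higher in acetaldehyde. VSNL1, another calcium-binding protein, read 1249.6, 86.1 and 1224. A2ML1, a protease inhibitor of the epidermis, was at least 11.1-fold higher, and CXADR, a receptor at tight junctions, at least 10.7-fold higher. ST6GALNAC2, a sialyltransferase, was 10.7-fold higher, and the carbonic anhydrase gene CA2 8.56-fold higher. SFRP1, a secreted Wnt antagonist, read 662, 84.6 and 501. It was the 1 member past 2-fold of 21 Wnt pathway genes, beside 1.85% of all genes past the floor that were 2-fold higher.

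The ligands IL18, IL1A and IL1B and the antagonist IL1RN of the interleukin-1 family were higher in acetaldehyde. IL18 read 832 in untreated cells, 179 in ethanol and 839 in acetaldehyde. IL1A read 2345, 411 and 1511, and IL1B read 235, 59.3 and 188. IL1RN, which blocks the receptor of IL1A and IL1B, read 109, 35.5 and 124, a fold of at least 1.77. Its difference is 0.82 with dim values raised to the floor. These 4 of 13 measured members were past 2-fold upward, 6 lay under the floor, and the median over the 13 was 0.00. IL1A, IL1B and IL1RN are direct neighbours among the genes past the floor. The receptor gene IL1R1 went the other way, at 53.7, 435 and 297, with a difference of -0.55.

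Fatty acid uptake genes were the clearest group in the other direction. FABP4, an intracellular carrier of fatty acids, read 41.8 in untreated cells, 2163 in ethanol and 152 in acetaldehyde, 14.3-fold lower in acetaldehyde. CD36, the membrane receptor for fatty acids, read 125, 2648 and 488, 5.43-fold lower. PDK4, a kinase that turns cells from glucose to fat oxidation, read 980.0, 3305 and 1139. ACSL5, which activates fatty acids, read 47.5, 212 and 79.6, and ANGPTL4, a secreted inhibitor of lipoprotein lipase, read 383, 786 and 316. These were 5 of 10 measured genes at least 2-fold lower, 0 were higher, and the median was -1.04. PPARG, the nuclear receptor that drives several of them in fat cells, read 75.5, 202 and 119. FADS2, a desaturase, was 2.50-fold lower, the 1 member past 2-fold of 11 genes of fatty acid synthesis. Of 10 cholesterol synthesis genes none reached 2-fold, which 1.85% of all genes past the floor reached upward and 0.526% downward.

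Markers of fat cells were examined beside this group. Of 9 measured adipocyte markers 5 were past the floor, 3 of these were 1.5-fold or more below ethanol and FABP4 alone was past 2-fold. Of all genes past the floor, 2.22% were 1.5-fold lower and 0.526% 2-fold lower. FABP4 and PPARG also belong to the fatty acid uptake list, so both lists share them. The summed intensity of the 9 was 567 in untreated cells, 2958 in ethanol and 751 in acetaldehyde, of which FABP4 made up 2163 in ethanol. PLIN4, a lipid droplet protein, read 76.7, 169.5 and 94.2, and PPARG is given above. The adipokine genes ADIPOQ and LEP and the lipase gene LPL were under the floor and equal on all 3 arrays, at 32.4, 38.4 and 27.7. PLIN1, a coat protein of lipid droplets, read 92.3, 122 and 98.5. Their part in the result was not tested.

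Single TGF-beta and YAP genes were lower in acetaldehyde than in ethanol and above untreated cells. TGFB2, a ligand of the pathway, read 92.5 in untreated cells, 1793 in ethanol and 661 in acetaldehyde, 2.71-fold lower in acetaldehyde. The receptor gene TGFBR2 read 457, 1087 and 599, a difference of -0.86. TGFB2 was the 1 gene past 2-fold of 15 measured, beside 0.526% of all genes past the floor that were 2-fold lower. CCN2, a matricellular target of YAP, read 114, 1143 and 527, the 1 gene past 2-fold of 12. A pair of inhibitors of extracellular proteases showed the same order, TFPI2 at 63.7, 1647 and 553, and SERPINE2 at 63.1, 1409 and 488. Ethanol exceeded acetaldehyde 2.98-fold and 2.89-fold.

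Mesenchymal genes differed less between the treated cultures. Of 10 measured transition factors none reached 2-fold, and the median was -0.23. ZEB2 read 61.5 in untreated cells, 318 in ethanol and 160.2 in acetaldehyde, a difference of -0.99, and ZEB1 read 75.7, 229 and 147. TWIST1 read 151, 1007 and 670.4, with a difference of -0.59. Among 20 measured genes of mesenchymal matrix and cytoskeleton, 1 was at least 2-fold lower and 1 at least 2-fold higher. BGN, the proteoglycan biglycan, read 129, 993 and 318, and HAS2 is the gene described above that was higher in acetaldehyde. FN1, the fibronectin gene, read 529, 5293 and 4204, and VIM, the vimentin gene, read 1693, 3086 and 2342. SPARC, a matrix glycoprotein, read 48.4 in untreated cells and 162 on both treated arrays.

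Collagens differed little as a group, with a median of -0.01 over all measured. Of 15 measured collagen genes 11 were past the floor and none reached 2-fold. At least 1.5-fold lower in acetaldehyde were 4, a level that 2.22% of all genes past the floor reached. COL12A1 read 87.04 in untreated cells, 754 in ethanol and 432 in acetaldehyde, and COL6A1 read 165, 743 and 457. The basement membrane collagens COL4A1 and COL4A2 had differences of -0.77 and -0.70. COL1A1, COL1A2 and COL3A1, the collagens of fibroblasts, had -0.05, 0.00 and -0.01. Integrins divided, with ITGA2, a collagen receptor of epithelia, at 1001, 297 and 751 and ITGA5, a chain of the fibronectin receptor, at 296, 1024 and 748. ITGA2 and ITGB6 were the 2 of 11 past 2-fold, both higher. ITGB6 was under the floor in ethanol, its fold is at least 1.31, and raising dim values to the floor left a difference of 0.39.

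Several genes induced by ERK, many of which damp that pathway in turn, were lower in acetaldehyde than in both other cultures. Of 14 measured members 3 were past 2-fold below ethanol and 0 above it, 6 were at least 1.5-fold lower, and the median was -0.54. Of all genes past the floor, 0.526% were 2-fold lower and 2.22% 1.5-fold lower. Not all followed this order. ETV1, an ETS factor, read 176 in untreated cells, 608 in ethanol and 244 in acetaldehyde, and so stayed above untreated cells, as did DUSP1, DUSP4, DUSP10 and SPRY2. The folds of DUSP6 and SPRY4, given above, were 2.25 and 2.17. PHLDA1, ETV5 and, from outside this list, the EGF receptor ligand EREG read 297, 236 and 254 in acetaldehyde. They read 539, 399.9 and 439.6 in ethanol and 389.9, 419 and 379 in untreated cells. EGFR itself read 1811, 803 and 1383.

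Chemokines and secreted immune genes went both ways. CCL20, a chemokine for T and dendritic cells, read 74.2 in untreated cells, 253 in ethanol and 62.2 in acetaldehyde, at least 3.60-fold lower in acetaldehyde. CXCL8 read 67.9, 223 and 107. CXCL16, a membrane chemokine, was 2.56-fold higher in acetaldehyde, so that 1 of 14 chemokines was higher and 2 lower. IL6 had 2 probes, of which the brighter gave a difference of -1.16, at least 1.99-fold, and the other 0.00. The complement proteases C1S and C1R read 587 and 336 in ethanol, 258 and 157 in acetaldehyde and 104 and 93.8 in untreated cells. The antimicrobial genes PGLYRP3 and LCN2 were higher in acetaldehyde, at least 2.16-fold and 2.88-fold. Of 20 interferon response genes IFI44L was past 2-fold, at 39.8, 305 and 137. Of all genes past the floor, 1.85% were 2-fold higher and 0.526% lower.

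**Figure D3:**
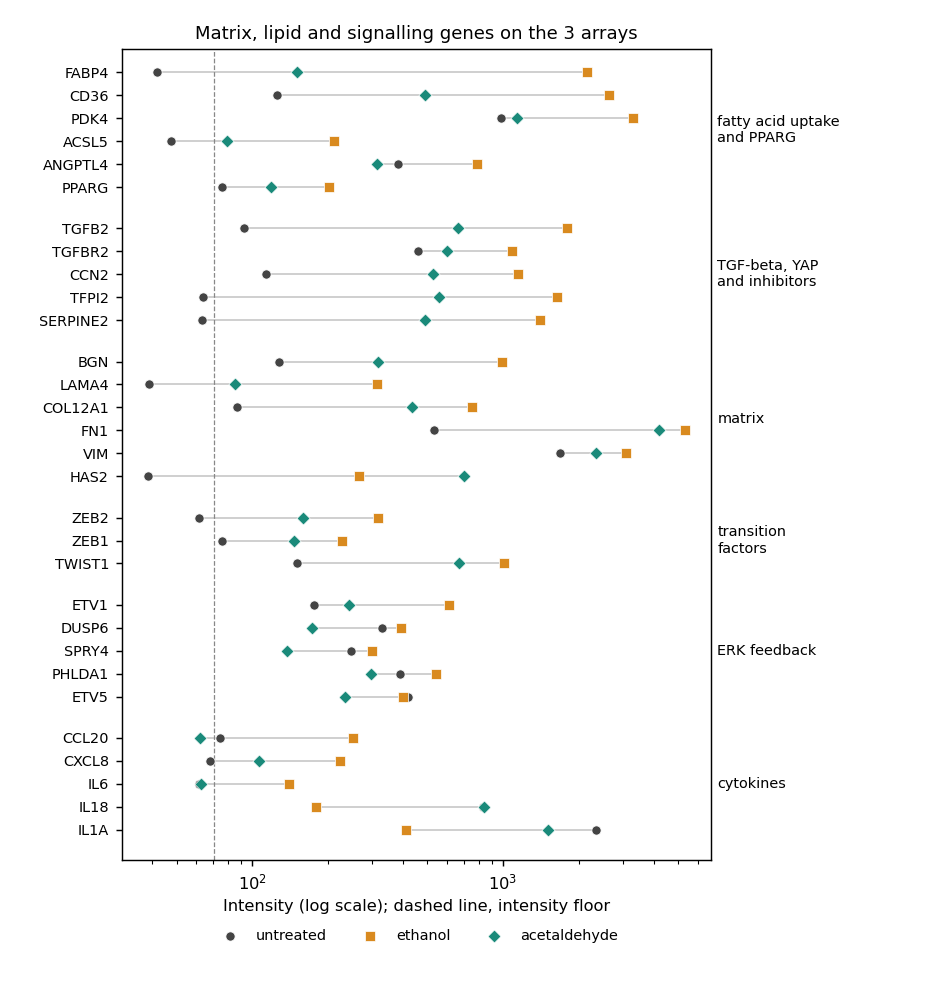
Intensity (horizontal, log scale) of named lipid, TGF-beta, matrix, transition factor, ERK feedback and cytokine genes on the untreated (circle), ethanol (square) and acetaldehyde (diamond) arrays, 1 array each; the dashed line is the floor of 70.2. Ethanol is the highest point for most genes with acetaldehyde between it and untreated cells, as in TGFB2 at 92.5, 661 and 1793, while HAS2 is highest in acetaldehyde, ANGPTL4, DUSP6, SPRY4, PHLDA1, ETV5 and CCL20 are lowest in it, and IL18 and IL1A are lowest in ethanol.

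Genes that metabolise the compounds themselves differed by less than 1.5-fold where they were past the floor. The list of alcohol and aldehyde enzymes had 24 measured genes and 13 past the floor. None reached 1.5-fold, beside 3.78% higher and 2.22% lower among all genes past the floor. The 5 with equal values, ALDH2 among them, are not read as measured agreement. ADH5, the alcohol dehydrogenase found in most tissues, read 204 in untreated cells, 215 in ethanol and 204 in acetaldehyde. The mitochondrial ALDH2, which clears most acetaldehyde in liver, was at 76.5 on all 3 arrays. ALDH1B1 read 557, 668 and 571, and CAT, the catalase gene, read 307, 417 and 321. The largest difference of the list past the floor was 0.51, in ALDH3B2, at 154, 108 and 154. CYP2E1, ADH1B and ADH1C were under the floor.

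Other aldehyde reducing enzymes did differ. AKR1B10, an aldo-keto reductase that also reduces retinal, read 306 in untreated cells, 42.6 in ethanol and 448 in acetaldehyde, at least 6.38-fold higher in acetaldehyde. Its relatives AKR1C1 and AKR1C2, which share much of their sequence, went the opposite way, at 1805 and 1700.5 in ethanol, 971 and 936 in acetaldehyde and 734 and 719.6 in untreated cells. CRABP2, a carrier of retinoic acid, and DHRS3, a retinal reductase, were 2.92 and 2.56-fold higher in acetaldehyde. In all 3 of 11 measured genes of this list were higher and 0 lower at 2-fold, with a median over the 11 of 0.00.

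Stress lists held few genes past 2-fold. It was reached by none of 9 metallothioneins, 13 heat shock genes or 20 genes induced by unfolded proteins or by the integrated stress response. Of all genes past the floor, 1.85% were 2-fold higher and 0.526% lower, so none or a single gene in lists this short is near the background. Within the last list 4 genes stood 1.5-fold or more above ethanol, a level that 3.78% of all genes past the floor reached. These were CHAC1, SLC7A5, SLC3A2 and DDIT3, with 0.91, 0.82, 0.73 and 0.72, and all 4 were highest in untreated cells. Of 20 oxidant and glutathione genes GPX2 was past 2-fold, with ethanol under the floor and a fold of at least 1.46, and HMOX1 and NQO1 had 0.01 and -0.18. Among 13 p53 targets SFN, also a marker of stratified epithelium, read 2131, 703 and 2041, and CDKN1A had a difference of 0.11. In the Fanconi and recombination list, whose proteins repair cross-links that aldehydes can make, FANCE had the largest difference of 14 measured genes, 0.73, and none reached 2-fold.

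Growth and housekeeping lists held few genes past 1.5-fold. None of 19 DNA replication, 18 mitosis, 14 ribosomal protein and 16 oxidative phosphorylation genes reached 1.5-fold. Equal values were found for 5, 3, 8 and 3 of them in that order, and are not read as measured agreement. The proliferation marker MKI67 read 513 in untreated cells, 563 in ethanol and 525 in acetaldehyde, and TYMS, the thymidylate synthase gene, had a difference of -0.43. Of 17 hypoxia and glycolysis genes the glucose carrier SLC2A1 was past 2-fold, at 1875, 897 and 1837. Contractile genes, 11 in number, held none at 1.5-fold. Of all genes past the floor, 3.78% were 1.5-fold higher and 2.22% lower, and 1.85% and 0.526% at 2-fold.

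Markers of other cells were checked against the label of a breast epithelial culture. KRT5, KRT8 and KRT18 were well above the floor on every array, whereas CDH1 and EPCAM came down to 117 and 85.3 in ethanol. The leukocyte gene PTPRC was at 18.7 on all 3 arrays, and 2 of 9 leukocyte markers were past the floor, with a summed intensity of 1006 in untreated cells, 1768 in ethanol and 1338 in acetaldehyde, most of it CD68. Of 10 endothelial markers 1 was past the floor, with sums of 403, 413 and 403. Of 10 fibroblast markers 5 were past the floor, with sums of 677, 809.6 and 776, and none reached 1.5-fold. Among 14 luminal breast markers 3 were higher and 1, PRLR, lower with a fold of at least 1.37, and among 11 basal and myoepithelial markers 3 were higher and 0 lower.

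**Figure D4:**
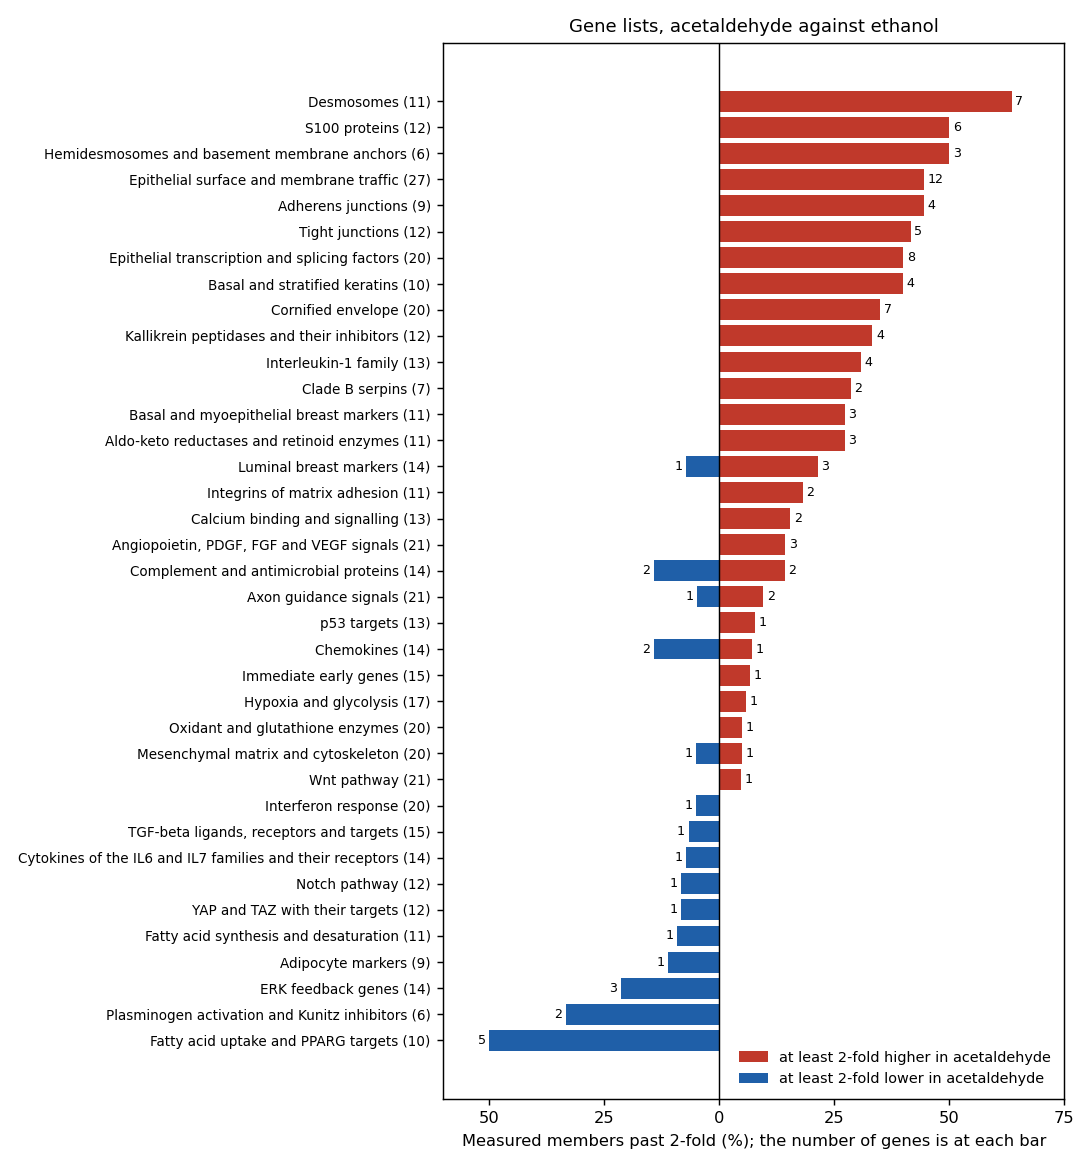
Share of the measured members of 37 gene lists at least 2-fold higher (red, right) or lower (blue, left) in acetaldehyde than in ethanol, as a percentage from 0, with the number of measured genes in brackets and the number past 2-fold at each bar. Lists with none past 2-fold or with fewer than 5 members past the floor are not drawn. Desmosomes reach 7 of 11 upward and fatty acid uptake 5 of 10 downward. Of the 11221 genes past the floor, 1.85% were higher and 0.526% lower, whereas the bars also count measured members under the floor.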

How the data were processed

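RNA of untreated, ethanol-treated and acetaldehyde-treated MCF12A cells was measured on 1 Affymetrix human Gene ST array each. The deposited table holds linear intensity values per probe. The submitters' processing notes name RMA, whose version and settings are not given in the sources used here, nor is a genome build. RMA as usually run normalises the arrays jointly and compresses dim values, so differences of dim genes can be understated. The soft agar arrays, deposited as a separate table, were not used here.

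Log2 was computed here from the deposited intensity. Of 33297 probes, 19181 carried 1 gene symbol in the platform annotation, 2055 several and 12061 none listed. The 1-symbol probes, of which 19143 matched RefSeq, gave 17958 genes, 895 of them with several probes, and the brightest probe was used. Genes were counted at 2-fold where the higher array reached 70.2. The 61 gene lists hold 865 genes, 784 measured. Members and lists were chosen with earlier results of these data known. Named genes were the 20 largest differences each way, up to 5 members per list at or past 1.5-fold, and a fixed set of marker genes. Other genes named in the text were chosen after their values were seen. List medians cover all measured members unless stated.

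Promoters came from RefSeq (GRCh38.p14). Scripts used Python 3.11.15, pandas 2.3.3, numpy 2.4.6, statsmodels 0.14.6 and matplotlib 3.10.9, and the counting was tested on simulated data. Alternatives covered the floor, the fold, centring, normalisation and probe choice.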

Additional observations from a re-analysis of the deposited data

How the results depend on the processing

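Counts were run under 12 alternatives, the 56 list medians under up to 7 and the 191 named genes under 5. No list median past 1.5-fold and no named gene past 2-fold changed direction. Every setting reuses the same 2 arrays, and several could hardly change a direction. Centring moved nothing because the median difference was 0.00, and a smooth correction by brightness shifted values by at most 0.0049. Raising dim values to the floor cannot reverse a sign. Constant directions are therefore no measure of how far a new culture would differ. Among smaller values, the axon guidance median went from 0.02 to -0.28 with the floor at the 75th percentile and to -0.01 after quantile normalisation, which also took the Fanconi list from 0.00 to -0.01 and HMOX1 from 0.01 to 0.00. A fold threshold of 1.5 gave 424 genes higher and 249 lower in acetaldehyde, so that 63.0% of genes past it were higher, and a threshold of 3 gave 97 and 12 (89.0% higher). A floor at the 75th percentile left 37 lower genes of 59, as fewer genes are tested, and 142 higher ones. The other settings gave between 149 and 248 higher and between 44 and 68 lower genes. List medians are compared here over members past the floor. Taking all measured members brought 7 of them within 1.5-fold: tight junctions from 0.79 to 0.26, cornified envelope from 0.93 to 0.28, clade B serpins from 0.70 to 0.39, kallikreins from 0.94 to 0.49, aldo-keto reductases from 0.66 to 0.00, interleukin-1 family from 1.66 to 0.00 and adipocyte markers from -0.76 to -0.14. With dim values raised to the floor, the basal keratin median went from 0.66 to 0.57 and the cornified envelope from 0.93 to 0.34. With the floor at the 75th percentile, medians past 1.5-fold were added for ERK feedback genes (-0.71), luminal markers (1.07) and basal markers (0.78). Raising dim values also brought 10 named genes within 2-fold, among them SCEL (0.34), IL1RN (0.82), ITGB6 (0.39), SPRR2A (0.52), GPX2 (0.55), PRLR (-0.46) and ORM1 (-0.68). IL6 was -0.58 as the mean of its probes, and after quantile normalisation JUN was 0.98 and ZEB2 -1.01. No paired analysis was possible because each group has 1 array. Signals near the floor of 70.2 limit the size of a fold, and 1 array per side limits every value.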

Other observations

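Signals for vessels, nerves and growth differed in single genes. Of 21 measured genes of angiopoietin, PDGF, FGF and VEGF signalling, 12 were past the floor. At 2-fold, 3 were above ethanol and 0 below it, beside 1.85% and 0.526% of all genes past the floor. For FGFBP1, a carrier of FGFs, ethanol was under the floor, the fold is at least 1.71, and the difference is 0.78 with dim values raised. FGFR3, an FGF receptor of epithelia, read 269 in untreated cells, 124 in ethanol and 270.1 in acetaldehyde. NRP2, a co-receptor for VEGF and semaphorins, read 276, 115 and 246, and its probes gave differences of 1.10 and 1.30. ANGPT1, a ligand of the endothelial receptor TEK, went the other way within 2-fold, at 78.5, 1168 and 704. Among 21 axon guidance genes 2 were higher and 1 lower. The netrin receptor UNC5B read 485, 133 and 339, the ephrin receptor EPHB3 read 171, 75.9 and 158, and the secreted semaphorin SEMA3C read 335, 1306 and 623. MAML2, a Notch coactivator, read 51.9, 322 and 159, the 1 gene past 2-fold of 12 in the Notch list.

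Further genes among the 20 furthest below ethanol had varied roles. LRRK2, a kinase known from Parkinson disease, read 32.8 in untreated cells, 232 in ethanol and 56.9 in acetaldehyde. MGP, an inhibitor of calcification, read 27.1, 208 and 59.4. LAPTM5, a lysosomal membrane protein known from blood cells, read 404, 1693 and 543, and its source was not tested. Among the 9 leukocyte markers, CD68 read 721, 1484 and 1055, PTPRC was under the floor at 18.7 on every array, and the sums were 1006, 1768 and 1338. PRLR, the prolactin receptor, read 28.04, 96.3 and 31.8, at least 1.37-fold lower in acetaldehyde. NR4A2, an orphan nuclear receptor, read 68.6, 168 and 54.1. The orosomucoid gene ORM1 and the cytochrome gene CYP4X1 were at least 1.60-fold and 2.11-fold lower. RANBP3L read 74.3 in ethanol, close to the floor, and its bound is 1.06-fold.

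In RefSeq order (GRCh38.p14), 11211 genes past the floor had a position. Among these, 38 of the 208 higher genes stood in 17 unbroken runs of higher genes. Of the 59 lower genes, 12 stood in 6 runs of lower genes. How many runs shares of 1.85% higher and 0.526% lower would give was not worked out, so these counts are a description. Some runs hold closely related genes, whose probes may share sequence, which was not tested. Pairs among the lower genes were C1S with C1R, CD36 with SEMA3C, TFPI2 with GNG11 and ENPP1 with CCN2. CDH3 with CDH1, KRT14 with KRT16 and PI3 with SLPI were pairs among the higher genes. Of 7 genes past 2-fold with several probes, 5 had every probe past 2-fold the same way. The exceptions were IL6, described above, and C6orf132, with differences of 0.00 and 1.01 for its probes. Probes past the floor with no symbol or several symbols added 32 features at least 2-fold higher and 9 lower.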
